A study of Mus musculus with 12 samples.

Results

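Core STAT5 regions are stretches of the mouse genome that were called as bound in wild-type fibroblasts and in both replicates of fibroblasts overexpressing STAT5A. Overlapping regions of the 3 deposited lists (1 bp or more) were merged, and a merged region was a member if it held at least 1 region from each list. The members were thus chosen by the positions of the called regions, and this gave 2984 core regions among 113354 merged regions (2.63%). They took in 3233 of 13278 wild-type regions (24.3%), 4131 of 71561 regions of overexpression replicate 1 (5.77%) and 3111 of 71803 regions of overexpression replicate 2 (4.33%). Of the merged regions present in both overexpression replicates, 9.84% were core. These counts follow from the rule and are given as a description.

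The data are chromatin immunoprecipitation and sequencing (ChIP-seq) of STAT5 in mouse embryonic fibroblasts of C57BL/6 background, grown out of fetuses of 12.5 to 13.5 days and used at passage 9 to 10. The series holds 12 libraries, of which 3 STAT5 libraries with a region list are used here. The wild-type cells carry their own Stat5 genes, and the overexpressing cells (STAT5A-Stat5-/-) lack Stat5 and carry overexpressed STAT5A, in both replicates. Both kinds of cells were starved of serum for 5 h and stimulated with growth hormone at 1 µg/ml for 45 min. For replicate 2 this rests on the file's own name, which matches the stimulated library, since the labels attach that list to the unstimulated as well as the stimulated library of the repeat. The vector and promoter behind the overexpression, the number of fetuses pooled and whether the replicates were separate cultures are not stated in the labels. Each list comes from 1 library of unknown depth and holds positions on build mm9 without any height, score or p-value. With 1 wild-type library no difference between the genotypes could be tested, and regions are not replicates, so no p-value is given. Binomial and median intervals cover counting error over regions only. Lists of unstimulated or Stat5-null cells were not analysed here, so no background without STAT5 stands beside these values.

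STAT5A and STAT5B are latent transcription factors held in the cytoplasm. Binding of growth hormone to its receptor activates the kinase JAK2, which phosphorylates STAT5, and the phosphorylated proteins pair and enter the nucleus. There they bind DNA at interferon-gamma activated sequence (GAS) elements, as dimers or as tetramers across neighbouring elements, and act on genes such as those of the SOCS feedback inhibitors. A called region is a stretch in which more immunoprecipitated fragments than background were found, and its summit is the position with the highest pileup.

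Most core regions were simple. In 1917 of them (64.2%, 95% exact binomial interval 62.5 to 66.0%) each list contributed 1 region. The next most frequent form, 625 core regions (20.9%), had 1 wild-type region, 2 regions of replicate 1 and 1 of replicate 2. More than 1 region came from replicate 1 in 31.2% of core regions, from wild type in 8.01% and from replicate 2 in 4.12%. Merged regions of both overexpression replicates without wild type had more than 1 replicate 1 region in 18.9%. In a core region the wild-type region can also join separate replicate 1 regions, so this contrast is a description.

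The multiple regions of replicate 1 were mostly pieces set side by side. Of 1147 gaps between neighbouring replicate 1 regions inside a core region, 957 (83.4%) were at most 12 bp, with a median of 11 bp. Of 249 such gaps in wild type 143 (57.4%) were that short, and of 127 in replicate 2 only 4 were, where the median gap was 120 bp. Joining regions of a list that lay at most 12 bp apart, a step chosen after the gaps had been seen, left 3005 core regions, of which 87.0% had 1 region per list and 6.12% more than 1 of replicate 1. Merged regions of both overexpression replicates without wild type then had more than 1 of replicate 1 in 2.80%. The number of pieces thus changed greatly with this step, and the number of core regions hardly.

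The wild-type region lay largely inside the overexpression regions. In the median core region 97.8% of the wild-type bases were also in replicate 1, 93.2% in replicate 2 and 84.0% in both. A base common to all 3 lists was present in 2845 core regions (95.3%, interval 94.5 to 96.1%), with a median of 309 such bases (quartiles 229 and 399). The other core regions were held together as chains, in which 1 list bridged the other two. By comparison, in merged regions of wild type and replicate 1 alone a median of 87.2% of the wild-type bases was covered, and in those of wild type and replicate 2 alone 72.9%. All wild-type bases lay inside replicate 1 in 44.9% of core regions. Members were chosen by overlap, so these shares are a description. Overexpression regions were also wider in core regions, with medians of 508 against 419 bp in replicate 1 and 601 against 421 bp in replicate 2.

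Membership rested on small overlaps in few cases. The smallest overlap holding any list in a core region had a median of 339 bp, and it was below 100 bp in 77 core regions (2.58%). The member just inside the limit was chr10:77887713-77888952, held by 1 bp, followed by chr15:38638848-38640301, held by 2 bp. Just outside it, chr10:8488411-8488901 was in both overexpression replicates and a wild-type region touched it with a gap of 0 bp, and chr10:75905473-75906021, in wild type and replicate 1, was touched in the same way by a region of replicate 2. Within 100 bp of the missing list lay 88 merged regions of both overexpression replicates, 48 of wild type and replicate 1, and 15 of wild type and replicate 2.

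Core regions were broad as merged regions, with a median of 828 bp (interval 814 to 848 bp) and a range of 310 to 4329 bp. Merged regions of both overexpression replicates without wild type had a median of 629.5 bp, those of wild type and replicate 1 of 579 bp, and those of wild type and replicate 2 of 584.5 bp. A merged region of more lists is wider by construction, and a wide region is more easily overlapped, so these medians are a description. Together core regions covered 2.69 Mb, which is 5.23% of the bases in all merged regions.

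The classes differed in the widths of overexpression regions more than in those of wild-type regions. The median width of replicate 2 regions inside core regions was 601 bp, where it was 455 bp in regions shared by the replicates alone and 328 bp in regions of replicate 2 only. Replicate 1 gave 508, 449 and 339 bp, and after joining the pieces 668, 539 and 398 bp. Wild-type regions had a median of 378 bp in core regions (interval 378 to 388 bp) and also 378 bp where no overexpression list overlapped them. After joining the pieces these wild-type medians were 398 and 388 bp. Wild-type regions that met replicate 2 alone had a median of 408 bp (interval 388 to 418 bp). The plot of widths shows the wild-type classes nearly level and the overexpression classes stepped.

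**Figure D1:**
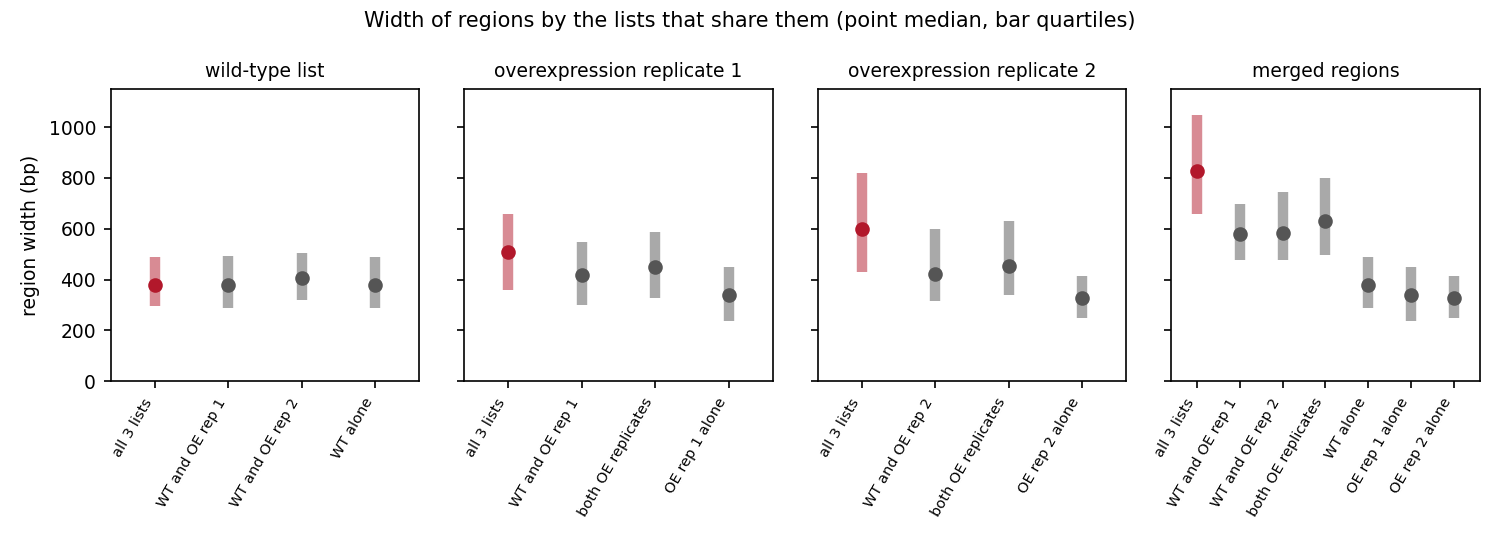
Width in bp of the regions of each list and of the merged regions, by the lists that share them; WT is wild type and OE overexpression, points are medians and bars the quartiles. Wild-type regions in all 3 lists and wild-type regions alone have the same median of 378 bp, while replicate 2 regions go from 601 bp in all 3 lists to 328 bp alone.

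Seen the other way, the share of core regions rose with the extent of the overexpression regions and stayed nearly level over wild-type widths. Of the merged regions in both replicates, divided into 5 equal parts by the extent of their overexpression regions, 3.84% of the narrowest part were core (interval 3.37 to 4.36%), then 6.02, 8.47 and 11.7%, and 19.2% of the widest (interval 18.2 to 20.2%). Joining the pieces first gave 4.10% in the narrowest and 18.97% in the widest part. Wider regions meet a wild-type region more easily. A wild-type region that bridges overexpression regions also enlarges their extent in the merged region. How much of the rise either makes was not tested. Of the wild-type regions, divided likewise by their own width, 23.6, 24.3, 26.8, 22.8 and 24.2% were in core regions, from the narrowest to the widest part.

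Widths of the lists were also compared within members. Across the 1917 core regions with 1 region per list, the widths in replicates 1 and 2 had a rank correlation of 0.40, whereas wild-type widths had 0.06 with either replicate. After joining pieces the values were 0.48, 0.09 with replicate 1 and 0.07 with replicate 2 over 2614 core regions. The points are sites that share 3 libraries, wild-type widths mostly lie in steps of 10 bp, and the list of replicate 2 was written in another format, so these are descriptions. In the same 1917 sites the left edges of the replicates differed by a median of 98 bp and the right edges by 110 bp, and those of wild type and replicate 1 by 140 and 149 bp. Wild-type regions were narrower in these sites, with a median width of 388 bp against 588 bp in replicate 1. Centres differed by a median of 73.5 bp between the replicates and 85 bp between wild type and replicate 1.

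The broadest core regions with 1 region per list were ranked by their narrowest region. The first was chr7:80762930-80763920, with widths of 749, 898 and 768 bp in wild type, replicate 1 and replicate 2 and 675 bp common to all. The second, chr12:78729073-78730154, had 828, 739 and 1051 bp, and its summits lay 65 bp apart. In chr9:43847773-43848670, with 818, 858 and 702 bp, the whole replicate 2 region of 702 bp was covered by both other lists. At chr16:10843753-10844790 the widths were 728, 1038 and 793 bp and the summits lay 10 bp apart, and at chr10:96322834-96323781 they were 718, 869 and 867 bp with summits 5 bp apart. The other 5 of the 10 broadest were chr11:54910803-54912000, chr16:11065923-11066783, chr8:33370653-33371610, chr10:76393629-76394620 and chr10:62254392-62255451. Their summits lay 40 to 145 bp apart. Breadth in all lists thus did not always go with close summits, since those of the broadest site were 220 bp apart.

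Long chains stood at the upper end of size. The core region built of most list regions, chr10:24314353-24318681, spanned 4329 bp and held 4 wild-type, 6 replicate 1 and 2 replicate 2 regions, with 1165 bp common to all lists. Its wild-type regions lay in the left part, and the right part was called in the overexpressing cells alone. The next, chr10:67709140-67712438, was 3299 bp wide and held 1 wild-type region of 459 bp, 6 regions of replicate 1 and 2 of replicate 2. Of the 5 gaps between its replicate 1 regions, 4 were 11 bp. The wild-type region overlapped only 1 of these 6 replicate 1 regions. The others were chr7:119821756-119824940 with 2, 5 and 2 regions of wild type, replicate 1 and replicate 2, chr16:24392528-24395720 with 1, 6 and 1, and chr10:24846675-24849550 with 2, 4 and 2.

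**Figure D2:**
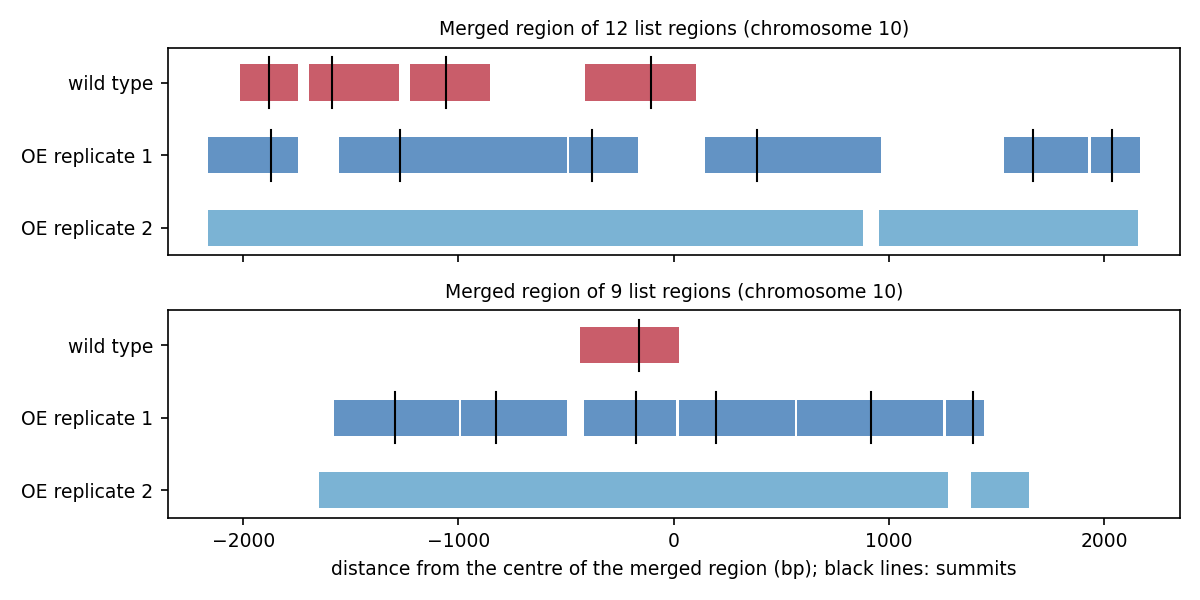
The 2 core regions built of most list regions, drawn by distance in bp from their centre, with the regions of each list as bars and deposited summits as black lines (replicate 2 has none). In the upper region 4 wild-type regions lie left of or across the centre. In the lower one the wild-type region of 459 bp overlaps 1 of the 6 regions of replicate 1.

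Summits were compared where the lists give them, in wild type and replicate 1. Their position within a region was not used by the rule, although the overlap bounds their distance. Of the 3233 wild-type summits in core regions, 89.1% fell inside a replicate 1 region, 87.9% inside a replicate 2 region, 82.1% (interval 80.7 to 83.4%) inside both and 5.1% inside neither. In merged regions of wild type and replicate 1 alone, 83.0% of the wild-type summits (interval 80.7 to 85.2%) fell inside the replicate 1 region.

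The distance to the nearest replicate 1 summit in the same core region had a median of 70 bp (interval 70 to 75 bp), and 39.9% of wild-type summits (interval 38.2 to 41.6%) lay within 50 bp. In merged regions of these 2 lists alone the median was 85 bp (interval 75 to 90 bp), and 33.7% (interval 31.0 to 36.6%) lay within 50 bp. With 1 region per list the medians were 65 and 85 bp. Region centres gave 90 bp in core regions and 94.5 bp in the others, so the summits stood 20 bp closer than the centres in core regions and 9.5 bp closer in the others. At the far end 15.8% of the summits in core regions and 17.1% of those in the others were more than 200 bp apart. No test was made of these differences.

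**Figure D3:**
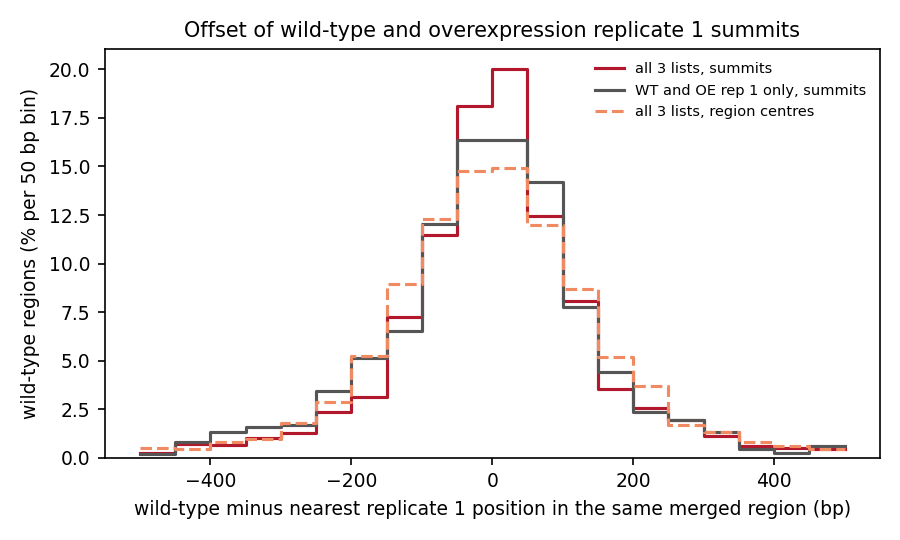
Offset in bp of each wild-type summit from the nearest replicate 1 summit in the same merged region, as percent of wild-type regions per 50 bp bin; the dashed line uses region centres, and offsets beyond 500 bp are not drawn. The curve for all 3 lists is highest in the 2 bins next to 0, and 39.9% of its summits lie within 50 bp, against 33.7% for wild type and replicate 1 only.

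Part of the wild-type list stood apart. Its edges lie on a 10 bp grid in 87.1% of regions, as do all edges of replicate 1, and 1713 regions lie off that grid. Off-grid wild-type regions were in core regions in 11.3% (interval 9.86 to 12.9%), against 26.3% (interval 25.5 to 27.1%) of on-grid regions. Where they were, their summits lay a median of 133 bp from the replicate 1 summit (interval 122 to 153 bp, 194 regions), against 70 bp for on-grid regions. Without the off-grid regions 2795 core regions were left.

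Core regions with 2 replicate 1 summits over 1 wild-type and 1 replicate 2 region showed how summits were arranged in a wider site. The 2 replicate 1 summits were a median of 360 bp apart (quartiles 270 and 460 bp), and 295 bp apart in sites of the same form without wild type. In the core form the wild-type region can also join the 2 replicate 1 regions, so this contrast is a description. The wild-type summit lay between the 2 replicate 1 summits in 51.4% of the 625 sites and within 100 bp of either in 66.6%. Its median distance from the nearer was 65 bp.

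Sites at which all positions coincided were few. Summits within 50 bp together with centres within 50 bp over all 3 lists were found in 124 of the 1917 core regions with 1 region per list (6.47%, interval 5.41 to 7.66%). The median spread of the centres over the lists was 140.5 bp. The closest site was chr7:149616305-149616661, with summits 5 bp apart, centres within 8.5 bp and widths of 258, 318 and 357 bp in wild type, replicate 1 and replicate 2. At chr2:136770133-136770740 the summits of wild type and replicate 1 were both at 136770455, with widths of 388, 608 and 573 bp. The same held at chr4:106905463-106906010, with both summits at 106905730. The other 7 of the 10 closest were chr2:117366773-117367720, chr7:4876358-4877279, chr13:9427153-9427730, chr10:124940113-124940760, chr10:37841623-37842181, chr1:89151725-89152115 and chr10:122379713-122380410, with summits 5 to 15 bp apart. The narrowest list regions of these 10 were 218 to 392 bp wide. Over all 1917 sites the narrowest list region had a median of 343 bp (quartiles 268 and 428 bp).

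Core regions mostly stood alone among themselves. The nearest other core region was a median of 136 kb away, and 342 core regions (11.5%, interval 10.3 to 12.7%) had one within 10 kb. Wild-type regions without overlap in the overexpressing cells, which are 2.7 times as many, had another of their kind within 10 kb in 11.6%, and the median distance was 81.6 kb. Merged regions of wild type and replicate 1 alone, which are fewer, had one in 4.74%. A class with more regions has shorter distances, so the median gap between neighbours was also divided by the mean gap of the class, where a lower value means more uneven spacing. This ratio was 0.40 for core regions, 0.53 for wild-type regions alone, 0.50 for wild type and replicate 1, and 0.29 for both overexpression replicates without wild type. Regions of replicate 1 alone had 0.33 and those of replicate 2 alone 0.38, both below core regions.

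When core regions at most 10 kb apart were joined, 2642 remained single and 342 formed 161 runs, of which 144 were pairs, 14 held 3 and 3 held 4. The runs of 4 were chr10:93056423-93062620, chr13:5859603-5869900 and chr2:173086590-173100744. The first spanned 6.20 kb and held 5 wild-type, 4 replicate 1 and 4 replicate 2 regions, and the second spanned 10.3 kb with 6, 11 and 6. The third spanned 14.2 kb with 5, 8 and 6. The most compact runs of 3 were chr12:16854983-16860666, spanning 5.68 kb, and chr7:56566723-56574329, spanning 7.61 kb.

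Although far from one another, core regions lay in neighbourhoods rich in overexpression regions. Within 50 kb of its centre the median core region had 6 other replicate 1 regions and 6 other replicate 2 regions, and 4.32 and 2.78% had none. Merged regions of both replicates without wild type had the same medians of 6 and 6. Wild-type regions alone had 3 and 3, and 26.0 and 24.9% of them had none. Core regions were chosen for overlap with both overexpression lists and wild-type regions alone for overlap with neither, so this contrast is tied to the rule. Leaving out chromosome 10 changed none of these medians. Wild-type sites that met only 1 overexpression list were near core regions in this. Merged regions of wild type and replicate 1 alone had medians of 5 and 5, and 5.47 and 6.11% had none. Those of wild type and replicate 2 alone also had 5 and 5, and 5.87 and 3.57% had none. Regions of replicate 1 alone had medians of 5 and 5, and those of replicate 2 alone of 4 and 5.

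The neighbours were drawn close to the site. Per core region, 1.84 other replicate 1 regions lay within 10 kb of the centre and 1.20 in the equally long stretch at 40 to 50 kb, a ratio of 1.53. Around regions of both replicates without wild type the ratio was also 1.53, and around wild-type regions alone it was 1.12. For replicate 2 the ratios were 1.43, 1.41 and 1.11. Wild-type neighbours showed another order. There were 0.316 other wild-type regions within 10 kb of a core region, 0.215 around regions of both replicates and 0.208 around wild-type regions alone. The ratios to the outer stretch were 1.73, 1.27 and 1.40. Wild-type sites that met 1 overexpression list were close to core regions in their wild-type neighbours. The mean number within 50 kb was 1.16 for core regions. It was 1.14 for wild type and replicate 1 alone, and 1.07 for wild type and replicate 2 alone. Replicate 1 pieces that lay just outside a merged region count as neighbours here.

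**Figure D4:**
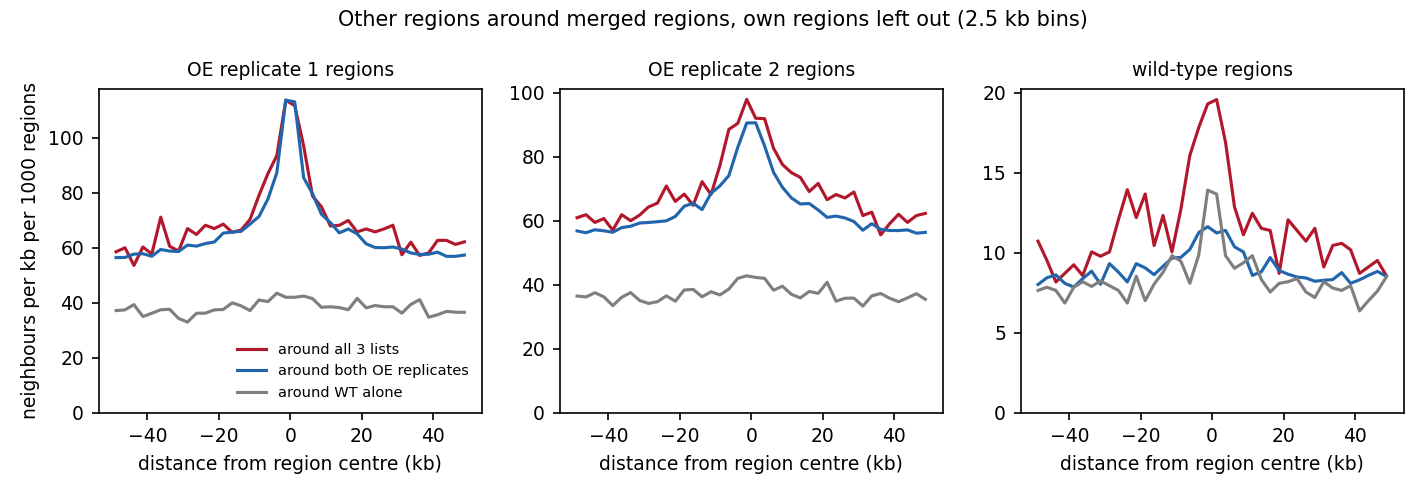
Number of other replicate 1, replicate 2 and wild-type regions per kb and per 1000 merged regions, against the distance in kb from the centre of regions in all 3 lists, in both overexpression (OE) replicates without wild type, and in wild type (WT) alone. The first 2 classes run together for the overexpression lists, with a ratio of inner to outer density of 1.53 for replicate 1 each, and wild-type regions alone are nearly level at 1.12.

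The share of wild-type sites that were core rose with the number of overexpression regions around them. Of merged regions with a wild-type region and no other replicate 1 region within 50 kb, 5.51% were core (129 of 2342, interval 4.62 to 6.51%). The share was 16.7% with 1 to 2 such neighbours, 23.7% with 3 to 5, 31.9% with 6 to 10 and 41.4% with 11 or more (639 of 1544, interval 38.9 to 43.9%). Counting replicate 2 neighbours gave 3.78% at none and 45.2% at 11 or more. A denser list overlaps more sites, and its part in the rise was not tested. Among the wild-type sites that met at least 1 overexpression list, the share that met both went from 54.9% with no replicate 1 neighbour to 70.7% with 11 or more.

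All core regions lay on the autosomes and chromosome X, at 0.861 per Mb on chromosome 4 to 1.45 per Mb on chromosome 11, apart from chromosomes 10 and X. Chromosome 10 had 317 core regions (10.6%, interval 9.54 to 11.8%), or 2.44 per Mb, which is 2.16 times the median of the other autosomes. Each against its own median over the other autosomes, wild-type regions alone were at 2.85 times and regions of both replicates without wild type at 1.32 times there. Chromosome X had 30 core regions, or 0.180 per Mb, 0.160 times the autosomal median of core regions. Each against its own such median, wild-type regions alone were at 0.199 times and regions of both replicates without wild type at 0.312 times.

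The excess on chromosome 10 did not come with a higher share of wild-type regions in core regions. That share was 21.5% on chromosome 10 (interval 19.5 to 23.5%), within the range of the other autosomes, from 20.8% on chromosome 2 to 32.4% on chromosome 7 (interval 28.8 to 36.2%). On chromosome X it was 20.7% (31 of 150 regions, interval 14.5 to 28.0%). As a share of the merged regions in both replicates, core regions made up 14.6% on chromosome 10 (interval 13.1 to 16.2%), against 7.61% on chromosome 19 to 13.0% on chromosome 5, and 5.08% on chromosome X.

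**Figure D5:**
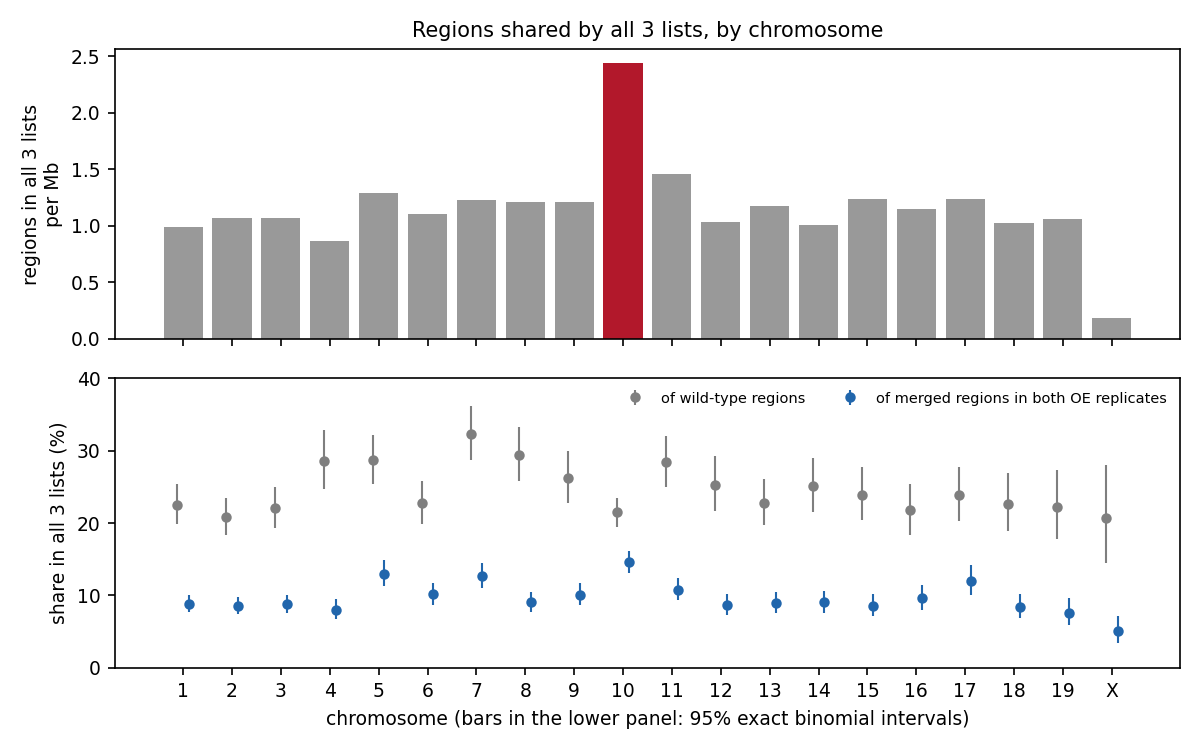
Core regions per Mb by chromosome (upper panel) and the share of wild-type regions, and of merged regions in both overexpression (OE) replicates, that are in all 3 lists (lower panel, with 95% exact binomial intervals). Chromosome 10 is highest in the upper panel at 2.44 per Mb, while its share of wild-type regions, 21.5%, is among the lower ones.

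Along the chromosomes core regions were spread widely. Of 461 complete windows of 5 Mb on the autosomes other than 10, 427 held at least 1, with a median of 5 and a maximum of 19. The shorter stretch at the end of each chromosome was left out. All 25 complete windows of chromosome 10 held at least 1, with a median of 12, and 22 of them exceeded the median of the other autosomes. The window with most core regions was chr10:20000001-25000000, with 25, and it includes the widest core region. Outside chromosome 10 the highest windows were chr11:95000001-100000000 and chr17:25000001-30000000, with 19 each. On chromosome X 18 of 33 windows held none, and the 4 core regions farthest from any other were all there. These were chrX:151696927-151697833, 7.28 Mb from the next, chrX:130136053-130136703 at 7.25 Mb, chrX:9941433-9942050 at 6.52 Mb and chrX:90365303-90365960 at 5.77 Mb, followed by a site on chromosome 18 at 5.66 Mb. Far from other core regions did not mean far from binding in the overexpressing cells, since the first of them had 8 regions of each replicate within 50 kb, whereas the site on chromosome 18 had none.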

How the data were processed

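Region lists of 3 STAT5 ChIP-seq libraries were used as deposited by the authors: start, end and, for wild type and overexpression replicate 1, summit positions on mm9, per the file headers. Replicate 2 region names begin with MACS; the caller of the other lists, the aligner, controls and cut-offs are not given in the labels or headers used here. Positions were treated as BED intervals and are printed counted from 1; summits are printed as deposited. Regions sharing at least 1 bp were merged in Python 3.11.15 (numpy 2.4.6, pandas 2.3.3, scipy 1.17.1, matplotlib 3.10.9). bedtools 2.31.1 gave the same 113354 merged and 2984 core regions, and 2000 of 2000 simulated core regions were found. Shares have exact (Clopper-Pearson) intervals and medians order-statistic intervals, both at 95%. Chromosome length was taken as the end of its last region. Named regions are the 10 broadest and 10 closest core regions with 1 region per list, the 5 of most list regions, the 5 largest runs, the 5 most isolated and those at the limit of the rule. The members and these choices were made with earlier results of these data known. Alternatives were stricter overlap or lists, 1 replicate left out, other distances, on-grid regions, a base common to all lists and joined pieces, the last 2 chosen after seeing the data. Nearby genes and the GAS motif were not analysed here, since the reference tables used are of GRCm38.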

Additional observations from a re-analysis of the deposited data

How the results depend on the processing

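Of 48 alternative values, 22 stayed within the interval of the value reported (for the number of core regions, within 1.5 times) and 26 moved; the cause was not tested except where stated. Where regions had to cover 50% of each other, 1721 core regions were left, holding 13.0% of wild-type regions, with a median width of 708 bp, a summit distance of 55 bp and 5.98% with another core region within 10 kb. The wider part of each list gave 1142 core regions, 17.5%, 908 bp, 80 bp, 7.01%, and 12.1% on chromosome 10; fewer regions enter by construction. Leaving out an overexpression replicate, which adds sites but loses those that the omitted list bridged, gave 3721 to 4059 core regions, 29.9 to 32.3% of wild-type regions, widths of 639 to 666 bp, 13.3 to 15.1% with another within 10 kb and 10.4 to 11.3% on chromosome 10; without replicate 2 the summit distance was 75 bp, and without replicate 1 it has no value. The share of wild-type regions was 26.3% on the grid, 17.8% with centres within 200 bp, where 2300 core regions were left, and 23.3% with a base common to all lists. Joining pieces gave a width of 858 bp. Centres in place of summits gave 90 bp. Spacing was 7.44% at 5 kb and 30.7% at 50 kb. Chromosome 10 counted per Mb was 2.16 times the other autosomes. That ratio is on another scale and is counted among the 26; of the 7 alternatives that give the share on chromosome 10, 6 stayed in its interval. No score was at hand, so the stricter lists were cut by width, and alternatives for the GAS motif and promoters could not be run without mm9 genes and sequence. No paired analysis was possible because these values come from no test and no list of unstimulated cells was analysed here. The unknown depth of the 3 libraries limits what their counts of regions can show.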

Other observations

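The centres of replicate 1 regions lay slightly to the right of those of replicate 2 regions. In the 2015 core regions with 1 region of each, the replicate 1 centre lay a median of 18 bp toward higher coordinates, and 15.5 bp in 21919 merged regions of the same form without wild type. In the 1917 core regions with 1 region per list, replicate 1 minus replicate 2 had a median of -13 bp at the left edge and 45 bp at the right. Replicate 1 thus reached further out on both sides, and more so on the right. Wild-type and replicate 1 centres differed by a median of -0.5 bp in core regions with 1 region per list. Over all core regions, replicate 1 set the right edge in 53.1% and the left edge in 49.3%, and replicate 2 the right edge in 29.8% and the left edge in 37.0%. Replicate 2 has no deposited summits, so the same offset could not be read from summits. Core regions on chromosome 10 had a median width of 866 bp (interval 818 to 907 bp), against 825 bp elsewhere (interval 809 to 840 bp). These intervals overlap. More than 1 replicate 1 region was present in 38.2% of core regions on chromosome 10 (interval 32.8 to 43.8%), against 30.4% (interval 28.6 to 32.2%) elsewhere.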
